A study of Mus musculus and Homo sapiens with 4 samples.

Results

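The sites described here are the regions of chromatin called bound by Miz1 in mouse neuronal progenitor cells, leaving out a block of 6 adjoining peaks on chromosome 17. The progenitor peak list held 261 peaks, and every peak that did not overlap the block (mm9, chr17:39979921-39985784) was kept, which left 255. Both peak lists of the study together held 3172 peaks. The block is known by its working name as ribosomal DNA. What lies there was not examined, because no mm9 annotation was used here. Its 6 peaks made up 7.87% of the length covered by the list, and they included the widest peak, of 3421 bp. Without them the remaining sites covered 64.9 kb on 20 chromosomes.

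The study asked what part Miz1 plays in keeping autophagy running. Chromatin immunoprecipitation with sequencing (ChIP-seq) isolates DNA crosslinked to a protein with an antibody and locates it by sequencing. The progenitors were taken from mouse brain at stage E13.5 and grown as neurospheres, which are floating clusters of dividing neural stem and progenitor cells. The antibody was H190. No genotype, strain or treatment is given in the labels for these cells. There was 1 Miz1 library and 1 input library, which is chromatin DNA without selection. The second kind of cell, the human line labelled MDA-MD-231, had the same pair of libraries, with the antibody G18 for Miz1. No peak list of an input library was used, and the sources used here do not give read depth. Values therefore come without an error between replicates, and intervals below treat the peaks as units and cover counting error only. A peak list measures no expression, so the identity of the progenitors could not be checked against marker genes.

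Miz1, encoded by Zbtb17, is a transcription factor with a BTB (POZ) domain, through which it forms complexes, and a row of zinc fingers that contact DNA. It activates genes on its own, and it becomes part of a repressive complex when MYC binds it. Cell cycle inhibitors are its best known targets under that repression. Genes for vesicle transport and autophagy were the interest of the study. The genes at the sites below are not named, because the gene and promoter tables used belong to GRCm38.p6 and positions were not converted between builds. For the same reason no sequence is printed.

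The 255 sites were narrow and compact. Their median width was 239 bp (exact binomial 95% interval of the median 228 to 254 bp), with quartiles of 193 and 311 bp and a range of 74 to 671 bp. The mean width was 254 bp (SD 89.1 bp over sites). Between 200 and 400 bp lay 165 sites, or 64.7% (95% Wilson interval 58.7 to 70.3%). A further 74 sites, or 29.0% (23.8 to 34.9%), were narrower than 200 bp, about the length to which the sequenced fragments were selected. Only 16 sites were wider than 400 bp and only 2 were wider than 500 bp.

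The scores of the sites ran from 100.04 to 3189.5. The score is the authors' own value for each peak. No header defines it, though the peak names and the column are those of MACS, which writes a transformed p-value there. The median score was 490.0 (exact binomial 95% interval 388 to 595), with quartiles of 178 and 2160. No site scored under 100, so the list ends there, and the size of the lowest class depends on that limit. Whether a cutoff was set at 100 is not stated in the sources used here. The lowest class, under a score of 200, held 72 sites, or 28.2% (95% Wilson interval 23.1 to 34.1%). At the other end 37 sites, or 14.5% (10.7 to 19.4%), stood at or above 3100. Of these, 33 shared the score of exactly 3100 and 4 were listed higher, up to 3189.5. The value of 3100 is called the cap below because of these ties, although nothing in the sources used here defines it as one, and sites "at the cap" include the 4 above it. Between these ends 58 sites scored from 200 to under 500, 32 from 500 to under 1000, 25 from 1000 to under 2000 and 31 from 2000 to under 3100. Only 1 site scored from 3000 to under 3100, at 3034.5. The tied sites cannot be ranked among themselves, and because of the ties the 4 sites listed higher are not read as the strongest.

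Width grew with score step by step. The 72 sites under a score of 200 had a median width of 174 bp, and 51 of them were narrower than 200 bp. Sites scoring 200 to under 500 numbered 58 and had a median width of 219.5 bp. The 32 sites from 500 to under 1000 had a median of 255.5 bp, and the 25 sites from 1000 to under 2000 had a median of 299 bp. The next class, from 2000 to under 3100, held 31 sites with a median of 331 bp. At the cap the median was 345 bp, with quartiles of 322 and 376 bp, and no site there was narrower than 256 bp. Across all 255 sites Spearman's rho between score and width was 0.83 and Pearson's r was 0.73. With the capped sites left out, rho was 0.79 over 218 sites. Among the 126 sites below the median score it was 0.47. These coefficients are descriptions only, since 1 run of peak calling on 1 library gave both width and score.

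**Figure D1:**
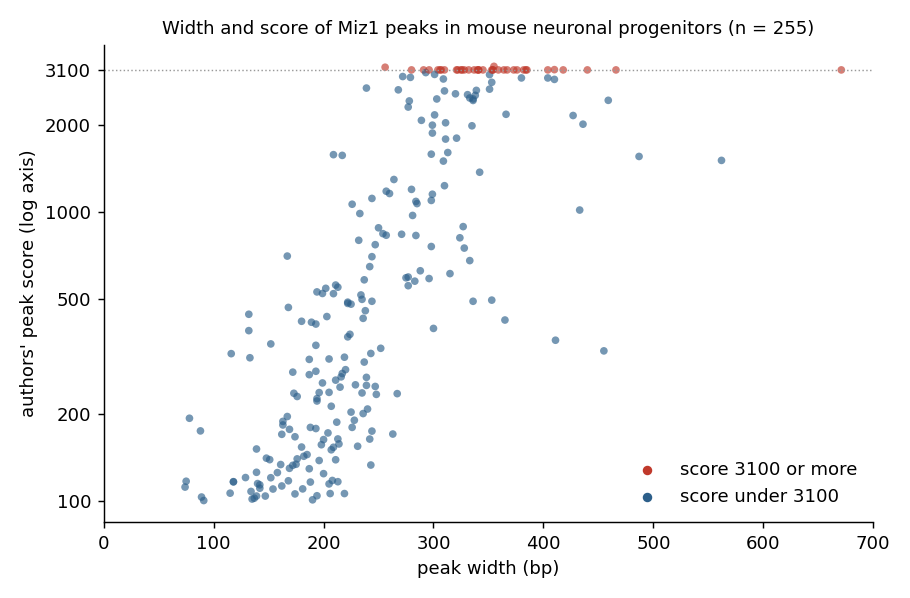
Each point is 1 of the 255 sites, with its width in bp on the horizontal axis and the authors' score on a logarithmic vertical axis; red points score 3100 or more. The points climb from narrow, low-scoring sites to a row of 37 sites at the cap, none of which is narrower than 256 bp.

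Not every wide site had a high score. The widest site of all was at chr11:23565789-23566459, with 671 bp and a score of 3100. The next was on the X chromosome, at chrX:96132665-96133226, where 562 bp carried a score of only 1506.7. The third was at chr10:98569332-98569818, with 487 bp and 1554.9. The others among the 5 widest were chr1:164500440-164500905 (466 bp, score 3100) and chr10:33739284-33739742 (459 bp, score 2432.6). So 3 of the 5 widest sites were not at the cap. Wide sites of low score were picked out after their values were seen. The widest site scoring under 500 was chr11:108872888-108873342, with 455 bp and a score of 329.9. It was followed by chr13:43576805-43577215, with 411 bp and 359.2. Both were wider than the upper quartile of the capped sites, 376 bp. The third widest under 500, chr8:108674022-108674386 (365 bp, score 422), was not. Such sites were rare: widths over 400 bp were found for 0 of 72 sites scoring under 200. Among those scoring 200 to under 500 they were found for 2 of 58.

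The narrowest sites were also among the lowest in score. The 5 narrowest were 74 to 89 bp wide, shorter than the selected fragments, and scored 102.9 to 192.8. They lay at chr8:19875326-19875399, chr2:90235279-90235353, chr14:104736169-104736246, chr18:68851742-68851829 and chr8:15519889-15519977. The lowest score of the list belonged to chr9:123371060-123371150, a site of 91 bp at 100.04. Next came chr5:112189845-112190034 (190 bp, score 100.6), chr16:95666257-95666391 (135 bp, score 101.2), chr17:34783881-34784017 (137 bp, score 101.9) and chr8:15519889-15519977 (89 bp, score 102.9). Of these 5 lowest-scoring sites, those on chromosomes 5 and 17 stood within 10 kb of another site, as did 16 of all 255 sites (6.27%). That the neighbours scored higher follows from choosing the lowest scores.

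The sites at or above the cap were spread over 13 of the 20 chromosomes. Listed above the cap were 4 sites: chr2:32091974-32092328 (score 3189.5, 355 bp), chr6:92164760-92165015 (score 3166.8, 256 bp), chr4:44085393-44085802 (score 3106.9, 410 bp) and chr11:88017608-88017991 (score 3100.1, 384 bp). The site on chromosome 6 was the narrowest of all 37 sites at or above the cap, which are called the strong sites here. The word refers to the score only, and how strongly Miz1 binds was not measured.

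Chromosome 7 held 7 of the strong sites, the most of any chromosome. They were chr7:19967058-19967364, chr7:36432411-36432716, chr7:71518821-71519173, chr7:73205215-73205568, chr7:121419433-121419808, chr7:129276335-129276698 and chr7:132588015-132588373. All were between 306 and 376 bp wide. Chromosome 4 followed with 6. Besides the one above the cap these were chr4:116691816-116692147, chr4:125724032-125724359, chr4:128866947-128867287, chr4:144784769-144785109 and chr4:151699732-151700053, and their widths of 322 to 341 bp differed little. Chromosomes 4 and 7, put together after their values were seen, carried 13 of the 37 strong sites and 32 of the 255 sites. They were picked for having the most strong sites, so the larger share of strong sites follows from that choice.

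Chromosomes 2, 6 and 11 had 4 strong sites each. On chromosome 2 these were, beside the one listed above the cap, chr2:9970148-9970472, chr2:91570073-91570454 and chr2:172196237-172196576. Those on chromosome 6 at exactly 3100 were chr6:30351439-30351878, chr6:56654623-56654918 and chr6:143048516-143048919. On chromosome 11 they were the widest site of the list, chr11:84729735-84730107 and chr11:98543683-98544008. Chromosome 3 had 3, at chr3:66789378-66789722, chr3:87709950-87710316 and chr3:94914735-94915055. Chromosome 1 had 2, one of them the wide site named above and the other at chr1:4847633-4847912, of 280 bp. Chromosome 17 outside the block also had 2, at chr17:24615814-24616198 and chr17:32501315-32501651. Single strong sites lay at chr5:117569852-117570269, chr10:119645658-119645967, chr12:53072295-53072585, chr13:114408698-114409001 and chr15:76456344-76456697.

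The remaining 7 chromosomes, namely 8, 9, 14, 16, 18, 19 and X, held 64 sites and none at the cap. Chromosome 9 came closest, with 12 sites and a highest score of 2941, and chromosome 8 reached 2907 with 16 sites. Chromosome 14 was low throughout: its 5 sites scored 138.5, 144.3, 192.8, 212.2 and 414.5, and all fell below the median of the whole set. Chromosome 18 was low as well. Its 11 sites scored from 113 to 543 with a median of 150, and 7 of them were under 200. On chromosome X 2 sites scored 132.5 and 138.6 and another 2 sites 1178.4 and 1506.7, with nothing between. Chromosome 15 showed a like gap, with 2 sites at 139.4 and 179.2 and another 2 at 2874.2 and 3100. The quartiles of all 255 scores, 178 and 2160, also lie far apart. With 4 sites each, the gaps are not read as a trait of these 2 chromosomes.

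**Figure D2:**
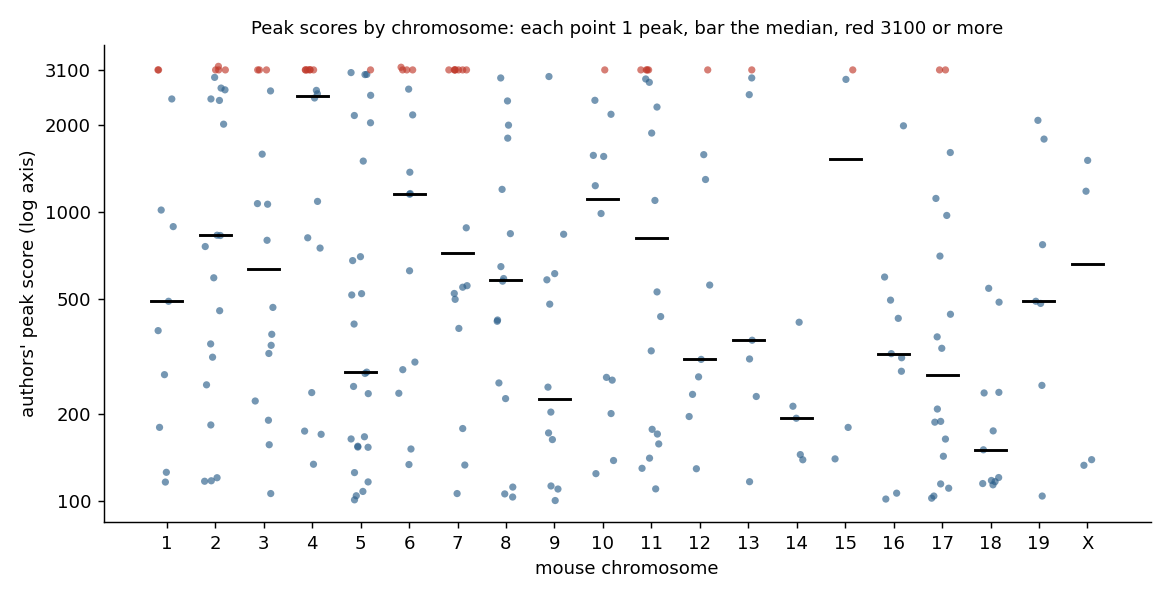
Scores of the 255 sites (logarithmic vertical axis) are shown for each mouse chromosome, with 1 point per site, a bar at the chromosome's median and red for scores of 3100 or more. Chromosome 4 has the highest median, 2520, chromosome 18 the lowest, 150, and 7 chromosomes have no red point.

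The chromosome with the highest median score was not the one with the most sites. Chromosome 4 had the highest median, 2520, with 16 sites, followed by chromosome 15 at 1527 with only 4 sites, chromosome 6 at 1157 with 15, and chromosome 10 at 1109 with 12. Chromosome 5 had the most sites, 27, but a median score of 278, and 10 of them scored under 200. Chromosome 17, which keeps 18 sites once the block is left out, had a median of 272, and 8 of its sites were under 200. Chromosomes 5 and 18, put together after their values were seen, carried 38 sites, of which 1 was at the cap and 17 scored under 200. Over all 255 sites 14.5% were at the cap and 28.2% scored under 200. The 2 chromosomes were not alike: 12 of 27 sites on chromosome 5 were at or above the median score, against 1 of 11 on chromosome 18. The smallest numbers were 4 on chromosome 15, 4 on chromosome X and 5 on chromosome 14. Nothing was listed on chromosome Y or on mitochondrial DNA.

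Site number per gene was set out from the number of protein-coding genes on each chromosome in the GRCm38.p6 table, 21631 in all on the autosomes and X. Chromosome 18 had 21.5 sites per 1000 genes and chromosome 5 had 21.3. Chromosomes 17 and 3 came next, the latter with 16.3. The lowest were chromosome X with 4.14, chromosome 15 with 5.15 and chromosome 14 with 5.88. Chromosome 7 had 7.88 with the largest number of genes, 2030. It held the most strong sites by count, but strong sites were not set out per gene. The order changed for sites at or above the median score. Chromosome 5 then had 9.46 per 1000 genes, chromosome 4 had 9.04 and chromosome 6 had 8.88, while chromosome 18 had 1.96 and chromosome 14 had 0. Across the 19 autosomes the number of sites and the number of genes had a Spearman's rho of 0.74 and a Pearson's r of 0.65. For the sites at or above the median score these were 0.84 and 0.82. The autosomes share 1 library, and both numbers also depend on the length of the chromosome, so these are descriptions.

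**Figure D3:**
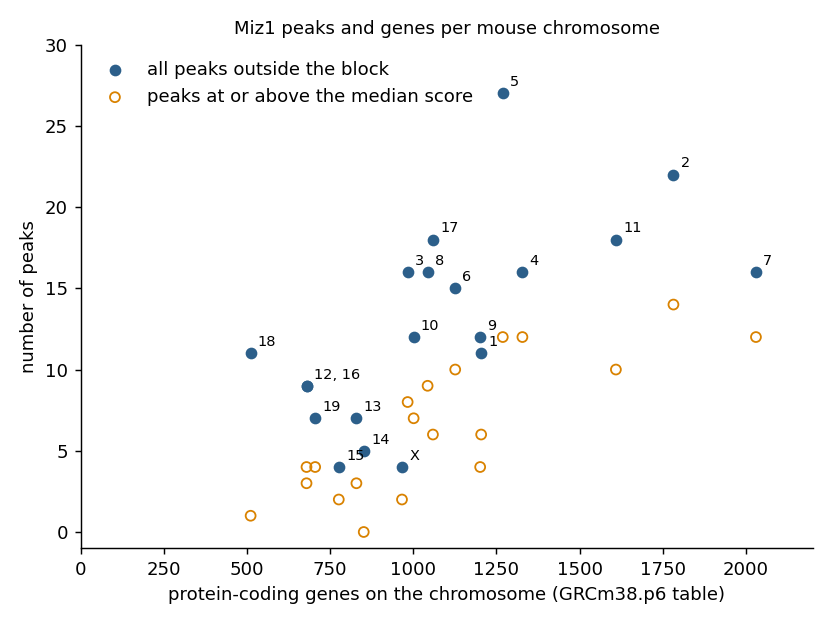
For each mouse chromosome, the number of sites is plotted against its number of protein-coding genes, with filled points for all 255 sites (labelled by chromosome) and open circles for the sites at or above the median score. Chromosome 5 stands highest with 27 sites, and chromosome 18, with 511 genes, has 11 sites of which 1 is at or above the median score.

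Most sites stood alone. The nearest other site was a median of 2.51 Mb away, measured between centres (quartiles 0.721 and 6.80 Mb). For 177 sites, or 69.4% (95% Wilson interval 63.5 to 74.7%), it was more than 1 Mb away. The widest stretch without a site between neighbours on a chromosome was 88.4 Mb on chromosome X, from base 7710029 to base 96132665. The next was 55.3 Mb on chromosome 1, between bases 4847912 and 60154416, and it directly followed a site at the cap. Another site within 100 kb was found for 35 sites, or 13.7% (10.0 to 18.5%), and within 10 kb for 16 sites, or 6.27% (3.90 to 9.95%). With peaks less than 1 kb apart merged, the latter share was 3.97%. Such distances depend on how many sites a list holds. In the human list of 2911 peaks, 10.4% lay over 1 Mb from the nearest other peak. There 44.8% had another peak within 100 kb. Whether the spacing differs from random placement was not tested, so isolation is not read as a trait of these sites.

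The sites within 10 kb of each other formed 8 pairs on 6 chromosomes. In 3 pairs the gap between the peaks was under 1 kb. The closest was on chromosome 5, where chr5:147072515-147072688 (score 166.3) and chr5:147072708-147072938 (score 154.2) were 19 bp apart. On chromosome 17, chr17:6021499-6021630 (score 441.8) and chr17:6021682-6021848 (score 702.5) were 51 bp apart. On chromosome 1, chr1:69733679-69733922 (score 490.0) and chr1:69734055-69734186 (score 387.7) were 132 bp apart. Scores within each of these 3 pairs differed by less than 1.6 times.

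In the other 5 pairs the gap was over 1 kb, and in 4 of them the scores differed by over 2 times. A site at the cap, chr3:94914735-94915055, had a low-scoring neighbour at chr3:94910720-94910947 (score 189.8), 4.06 kb away between centres. On chromosome 17, chr17:34781486-34781766 (score 971.4) stood 2.32 kb from chr17:34783881-34784017 (score 101.9). On chromosome 18, chr18:84255754-84255955 (score 543.3) stood 1.18 kb from chr18:84256972-84257089 (score 116.3). On chromosome 5, chr5:112191135-112191401 (score 234.6) lay 1.33 kb from chr5:112189845-112190034 (score 100.6). The pair of like score was chr8:70474687-70474969 (score 575.2) and chr8:70480549-70480790 (score 645.9), 5.84 kb apart. No pair within 10 kb had both sites at the cap.

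A further 10 pairs of neighbours lay 10 to 100 kb apart. In 5 of these both sites were at or above the median score, against 1 of the 8 closer pairs. Examples were chr3:108365204-108365513 (score 2621.9) and chr3:108456690-108456987 (score 1583.5), 91.5 kb apart. On chromosome 5, chr5:36873081-36873391 (score 2033.8) and chr5:36924940-36925248 (score 1498.4) were 51.9 kb apart. On chromosome 4, chr4:148473784-148474103 (score 2562.2) and chr4:148540773-148541056 (score 1086.5) were 67.0 kb apart. The least equal pair was also on chromosome 4, where a site at the cap, chr4:151699732-151700053, had a neighbour of score 169.6 at chr4:151725989-151726150, 26.2 kb away. Chromosome 17 held a run of 3 sites between bases 80870855 and 80952875, with scores of 207.5, 1604.2 and 1112.5.

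Of the 37 strong sites 32 were isolated ones. Among the 177 sites with no other site within 1 Mb these made up 18.1% (95% Wilson interval 13.1 to 24.4%). Of the 78 sites with one, 5 were at the cap, or 6.41% (2.77 to 14.1%). The intervals of these shares overlap slightly, which does not settle whether the shares differ, and the difference was not tested. Sites scoring 2000 or more made up 29.9% of the isolated sites and 19.2% of the others. Sites scoring under 200 made up 29.4% of the isolated sites and 25.6% of the others. The median scores of the isolated sites and of the others were 490.0 and 492, and the median widths 239 and 241 bp.

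**Figure D4:**
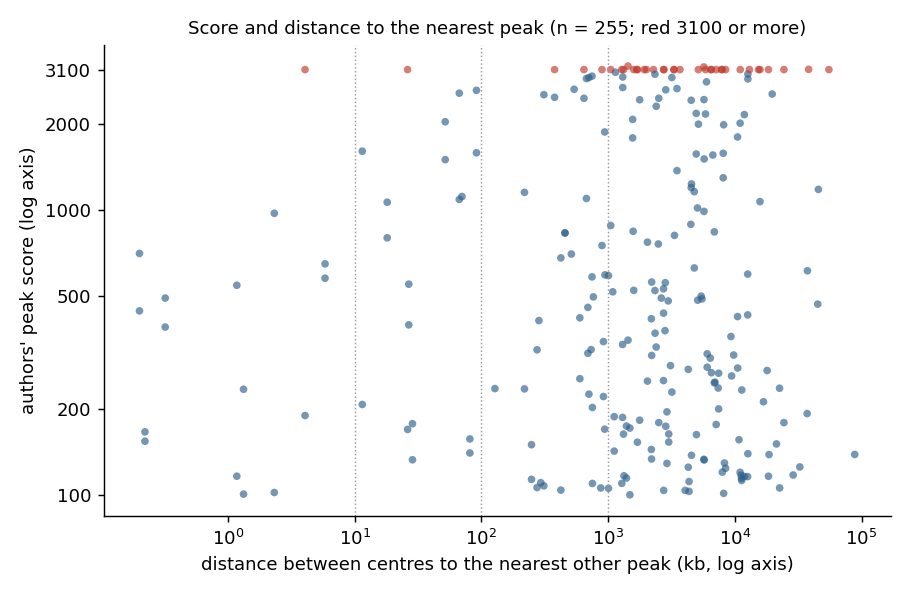
For each of the 255 sites the authors' score is plotted against the distance between centres to its nearest other site in kb, both axes logarithmic, with dotted lines at 10, 100 and 1000 kb and red for scores of 3100 or more. Most points lie beyond 1000 kb, where 32 of the 37 red points are, and 1 red point lies under 10 kb.

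Beside the progenitor sites stands the list of 2911 peaks from the human line, which differs from them in species, antibody and kind of cell at once, so no test was made. Scores of the lists were not set against each other. The median width was 346 bp in the human list and 239 bp among the progenitor sites. Peaks wider than 400 bp made up 37.0% of the human list and 6.27% of the progenitor sites. Narrow peaks under 200 bp made up 9.24% of the human list and 29.0% of the progenitor sites. Whether widths are on a like footing in both libraries is not known, since their read depths are not given.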

How the data were processed

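Miz1 ChIP-seq was analysed from 2 peak lists, 1 per Miz1 library. Per the submitters' processing notes, the tools included Bowtie 0.12.7 (an aligner) and MACS 1.4.2 (a peak caller), and the builds were mm9 and hg19. Not given in the sources used are tool settings, use of the input in calling and read depth. Each deposited list gives a chromosome, start, end, name and score per peak, without a header. The score is the authors' deposited value and was used only within a list. Coordinates count from 1.

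The members and lists were chosen with earlier results of these data known. The sites are all progenitor peaks that do not overlap the block. Neighbour distances run between peak centres. Shares carry 95% Wilson intervals and medians exact binomial ones. Named sites were those above 3100, the 10 widest at the cap, the 5 widest, narrowest and lowest in score, pairs under 10 kb and extreme chromosomes. All other named sites, including the rest at the cap and pairs 10 to 100 kb apart, were chosen after their values were seen. The counting of blocks and close pairs was tested on simulated lists. No test between groups was made. Starts of genes, gene lists and motifs were planned but need an mm9 annotation or genome, which was not used here. Python 3.11.15, pandas 2.3.3 and scipy 1.17.1 were used.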

Additional observations from a re-analysis of the deposited data

How the results depend on the processing

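For 6 values of the progenitor sites 23 recalculations were made, and 18 stayed within the 95% interval of the value as reported. They covered keeping the block, merging peaks less than 1 kb apart and, chosen after the data were seen, leaving out the widest 5% of peaks. None of these 3 moved a value out of its interval, but merging took the share of sites with a neighbour within 10 kb from 6.27% to 3.97%, close to the lower limit of 3.90%. The 3 lists held 261, 252 and 243 peaks, nearly all shared with the reported sites. Staying within an interval of counting error was therefore likely from the start, and the 18 are not read as evidence of stability. Keeping the block on chromosome 17 could not change the value for chromosome 5. Leaving out the widest 5% left the value for chromosome 17 the same. Keeping the 129 sites at or above the median score, which by construction leaves fewer peaks, gave a median width of 310.0 bp, a share with a neighbour within 10 kb of 1.55%, and 5.67 and 9.46 sites per 1000 genes on chromosomes 17 and 5. A neighbour within 100 kb, in place of 10 kb, was found for 13.7% of sites, which follows from the longer distance. The alternatives on gene starts, gene lists and motifs were not run, since they need an mm9 annotation or genome. Depth is unknown, so weak sites that were not called cannot be told from absent ones, and with 1 library no site has a replicate.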
